A study of Mus musculus with 4 samples.

Results

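The genes described here encode the proteins of the cytosolic ribosome. They were chosen by symbol, as Rpl or Rps followed by digits and at most 1 letter, together with Rplp0, Rplp1, Rplp2 and Rpsa. This rule found 80 of the 33565 genes listed, 49 for the large subunit and 31 for the small subunit, all annotated as protein coding. It missed 4 genes, among them Rps3a1 and Fau, which encode ribosomal proteins under other symbols, and Rack1, which encodes a protein bound to the small subunit. These are given only beside the members.

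UMI counts came from CapSeq, in which single cells are held in hydrogel capsules and their cDNA is labelled by split-pool barcoding, on 3 mouse lines barcoded together. On the plate of the first barcode (BC1), columns 1 to 4 held N2a, a neuroblastoma line, columns 5 to 8 held the embryonic fibroblast line NIH/3T3, and columns 9 to 12 held E14TG2a mouse embryonic stem cells (mESCs). N2a and NIH/3T3 cells were grown with 10% fetal bovine serum, and mESCs on 0.15% gelatin with 15% serum, leukemia inhibitory factor at 1000 U/mL, 3 μM CHIR99021 (a GSK3 inhibitor) and 1 μM PD0325901 (a MEK inhibitor). The lines were sequenced together and separated by BC1, and the reads of a line are called its library here. Each line was 1 such library and no label named separate cultures. The lines were therefore compared without a test, and medium cannot be told apart from line.

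Cells with at least 1000 UMIs and at most 20% mitochondrially encoded UMIs were kept, which left 2323 N2a cells, 2037 NIH/3T3 cells and 2137 mESCs. Where 3 values follow each other without names, they are for N2a, NIH/3T3 and mESCs, in that order. The kept cells had medians of 6185, 4863 and 4803 UMIs and totals of 17955221, 11697865 and 12322098 UMIs. Cell barcodes shared between lines were 0, which the separation by BC1 fixes in advance. Each of 3 marker genes per line was at 233 CPM (UMIs of the gene per 1000000 UMIs) or more in its own line and at 11.4 CPM or less elsewhere. Like the other gene lists, the markers were chosen with earlier results of these data known, so they do not test the labels. Intervals are exact 95% Poisson or binomial intervals, which cover counting error only. The 32 BC1 sequences of each line, each marking the cells of 1 well, give the technical spread within a library.

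A ribosome is built from 1 copy of almost every ribosomal protein, the stalk proteins Rplp1 and Rplp2 being the known exception, and dividing cells devote much of their mRNA to them. Most mRNAs of these proteins begin with a C followed by a run of pyrimidines, the terminal oligopyrimidine (TOP) motif, through which mTOR signalling controls their translation. A few ribosomal proteins have paralogs that are made in particular tissues, and the mouse genome holds many processed pseudogenes, which are intronless copies of their mRNAs.

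The TOP motif, C followed by 4 pyrimidines and read on the strand of the gene with C or T as pyrimidines, was looked for at the start sites of a RefSeq table (build GRCm38.p6), in which 60 members were found. It stood exactly at the annotated start in 13 of them (21.7%), and in 2.96% of the 7866 other genes of the table at a mean of 10 CPM or more. With a start up to 5 bases away it was found in 28 of the 60 (46.7%) and in 23.9% of the other genes. The windows of 4 members described below are shown from 30 bases before to 20 bases from the start, with the pyrimidine run in capitals. They lie on GRCm38.p6 at chr4:86857348-86857397 (minus strand), chr17:33955646-33955695 (minus strand), chr11:114668550-114668599 (plus strand) and chr3:90213629-90213678 (minus strand).
Rps6: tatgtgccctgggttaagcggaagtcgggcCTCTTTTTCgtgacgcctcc
Rps18: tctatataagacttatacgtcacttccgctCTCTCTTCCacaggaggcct
Rpl38: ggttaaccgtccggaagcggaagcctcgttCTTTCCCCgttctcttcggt
Rps27: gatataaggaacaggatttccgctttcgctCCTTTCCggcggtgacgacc

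The members were short genes with many copies. Their coding sequences had a median of 454.5 bases in 5 coding exons, against 1443 bases and 9 exons in 9528 other protein-coding genes at 10 CPM or more. Members lay on 19 chromosomes, with 4 members on chromosome X. Of the 80 members, 77 (96.2%) had at least 1 stretch of 60 coding bases with an exact copy elsewhere in GRCm39, and 63 (78.8%) had such copies for 50% or more of their stretches. Among the other genes these shares were 17.9% and 3.64%. Of all the copied stretches, 91.0% lay in no exon of a listed gene. How the authors' counting treated reads that match several places is not given in the sources used here, so counts of members can be lost or split between copies, and the part of this in each level was not tested.

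Ribosomal protein genes took the largest share of UMIs in NIH/3T3 cells and the smallest in N2a cells. The 80 members held 7.14% of N2a UMIs (95% interval 7.13% to 7.16%), 9.22% of NIH/3T3 UMIs (9.20% to 9.23%) and 8.20% of mESC UMIs (8.18% to 8.21%). The share in NIH/3T3 was 1.29 times that in N2a and 1.12 times that in mESCs, and the mESC share was 1.15 times that in N2a. Over the 32 BC1 sequences the share ran from 6.29% to 8.96% (N2a), from 8.28% to 10.6% (NIH/3T3) and from 6.87% to 10.4% (mESCs). The ranges of the lines overlapped, although all 32 BC1 sequences of NIH/3T3 lay above the N2a median and 20 of them above the highest N2a value. Only 1 BC1 sequence of NIH/3T3 lay above the highest mESC value.

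**Figure D1:**
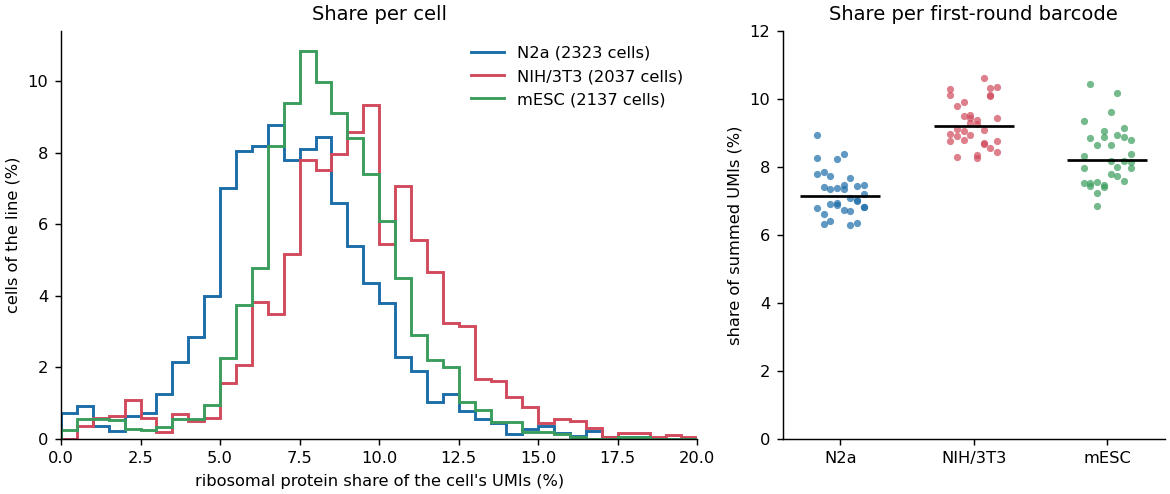
Left, the percent of cells of each line (y axis) by the percent of the cell's UMIs that came from the 80 ribosomal protein genes (x axis, bins of 0.5 points; the few cells above 20% are not drawn). Right, the same share summed over the cells of each BC1 sequence (points, 32 per line) and over the line (black bars): the lines are at 7.14%, 9.22% and 8.20%, and their BC1 sequences overlap.

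The median cell had a share of 7.26%, 9.29% and 8.27%. The middle 90% of cells ran from 3.54% to 11.7%, from 4.95% to 14.0% and from 5.03% to 12.1%. Of the NIH/3T3 cells, 81.1% lay above the N2a median. Barcodes with 10 to 99 UMIs, too few for a cell by the filter, had shares of 7.09%, 10.4% and 7.80%. These lay in the same order as the cells of the 3 lines, and their part in the shares was not tested.

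The large subunit genes held 4.24%, 5.37% and 4.68% of UMIs, and the small subunit genes 2.91%, 3.85% and 3.52%. The large subunit therefore made up 59.3%, 58.2% and 57.0% of the member UMIs, a range of a few points across lines whose total shares differed more. Among the other lists, the 18 translation factors and related genes known for TOP mRNAs, which include the missed genes Rack1 and Fau, had the same order with 1.29%, 1.75% and 1.62%. The 20 ribosome biogenesis genes, which process rRNA or transcribe it, did not follow this order, with 0.702%, 0.789% and 0.994%. Neither did the 78 mitochondrial ribosomal protein genes, with 0.630%, 0.683% and 0.570%.

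The median cell held 431, 440 and 402 member UMIs, from 74, 75 and 75 different members. UMIs count captured molecules and were not divided by transcript length, so the order of genes within a line is the order of captured molecules. The median member was at 874, 1141 and 989 CPM. Rpl6, a large subunit protein, was the highest member in each line, with 1785, 2794 and 2450 CPM. By the mean over lines Rps29 of the small subunit followed with 1751, 2303 and 1763 CPM, and then Rpl23 of the large subunit with 1750, 2030 and 1599 CPM. Most members were among the most captured genes, with 73, 76 and 74 of them in the 500 genes with most UMIs.

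At the other end stood Rpl3l, a paralog of Rpl3 known from skeletal and heart muscle, with 11, 6 and 12 UMIs. It was the only member that did not reach a mean of 10 CPM, so 79 members entered the comparisons between lines. Rpl29 of the large subunit was also low, at 22.7, 33.2 and 21.9 CPM, and 86.2% of its coding stretches had copies, at up to 26 places. Every member had UMIs in all lines.

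**Figure D2:**
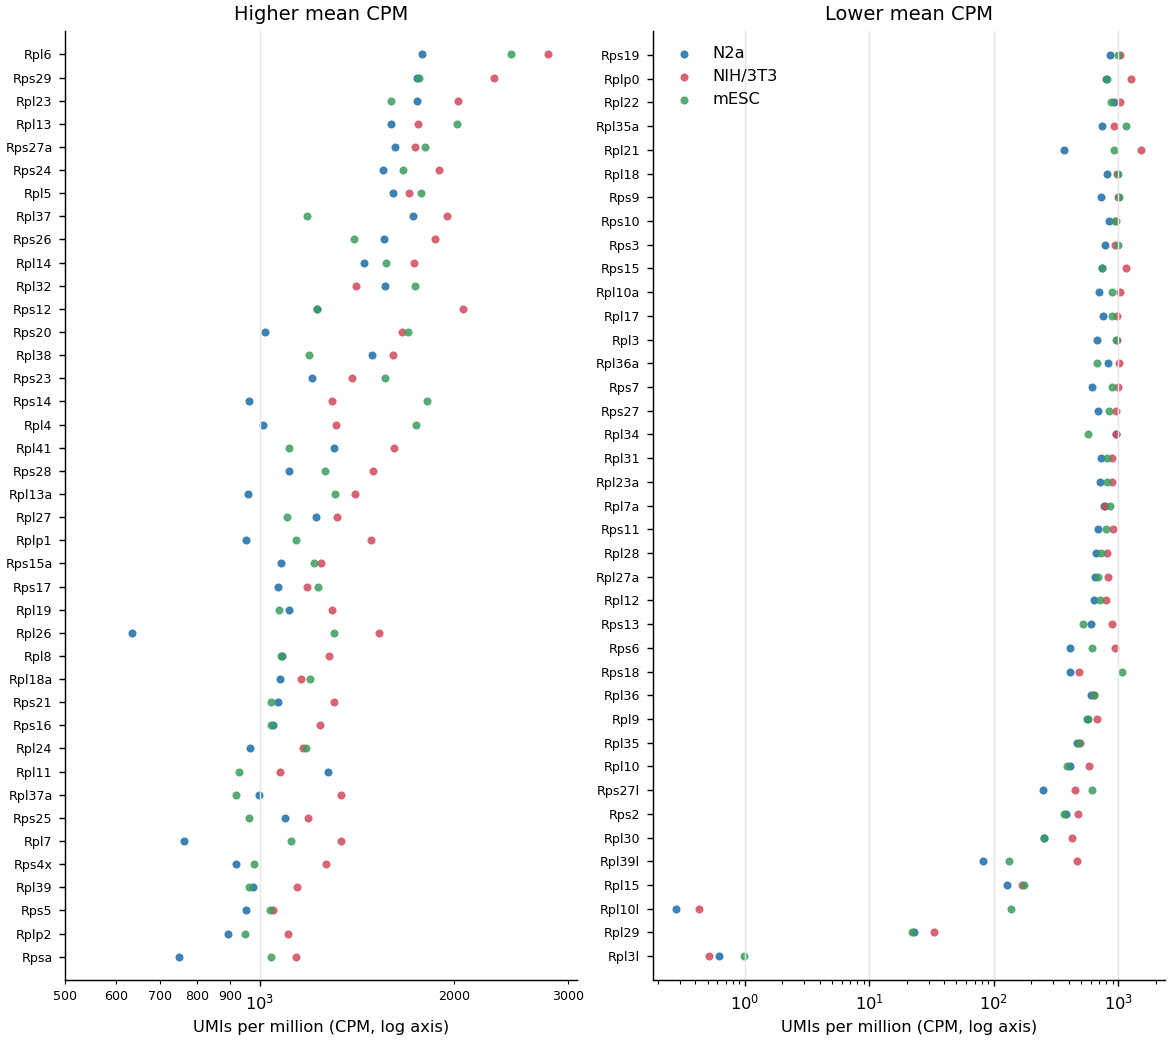
CPM (x axis, log scale) of 79 of the 80 ribosomal protein genes (y axis, ordered by mean CPM) in N2a, NIH/3T3 and mESCs (point colours), each point 1 library. The scales of the panels differ: most genes lie above 500 CPM with close points, and Rpl21, Rpl39l, Rps27l and Rpl10l have points far apart.

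Levels were highest in NIH/3T3 for 55 members, in mESCs for 23 and in N2a for 2, and lowest in N2a for 57. The order of the summed share, NIH/3T3 above mESCs above N2a, was that of 36 members. These orders were not counted over all genes, so the counts do not show what is particular to the members. Members were compared between lines by the ratio of CPM + 1, and a ratio of 1.5 or more is called past the fold. NIH/3T3 was past the fold over N2a in 16 of 79 members (20.3%), against 25.4% of all 9909 genes with a mean of 10 CPM or more. N2a was past the fold over NIH/3T3 in 0 members, against 25.6% of all genes. The mESCs were past the fold over N2a in 12 members (15.2%), against 25.3% of all genes, and N2a over mESCs in 1, Rpl34, against 29.5%. NIH/3T3 was past the fold over mESCs in 11 members (13.9%), against 29.8%, and mESCs over NIH/3T3 in 2, Rpl10l and Rps18, against 27.0%.

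The counts depended on the ratio asked for and, by construction, on whether the members' own sum was the denominator. At a ratio of 1.25 the members lay above the share of all genes for NIH/3T3 over N2a only, with 36 (45.6%) against 34.2%. They lay under it for mESCs over N2a, with 24 (30.4%) against 34.1%, and for NIH/3T3 over mESCs, with 23 (29.1%) against 38.7%. In the reverse directions 0 members passed for N2a over NIH/3T3 (against 35.3%), 4 for N2a over mESCs (38.2%) and 5 for mESCs over NIH/3T3 (35.8%).

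At a ratio of 2 the members were under the share of all genes in every direction. The counts were 4 against 15.9% for NIH/3T3 over N2a, 5 against 17.0% for mESCs over N2a and 1 against 19.6% for NIH/3T3 over mESCs. In reverse they were 0 against 15.5%, 0 against 19.7% and 2 against 17.8%.

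Relative to the summed UMIs of the members, the fold of 1.5 was passed by fewer members for NIH/3T3 over N2a, with 4 against 17.7% of all genes. The counts were 8 against 21.5% for mESCs over N2a and 3 against 25.9% for NIH/3T3 over mESCs. In reverse they were 1 against 40.5% (N2a over NIH/3T3), 3 against 36.5% (N2a over mESCs) and 4 against 32.9% (mESCs over NIH/3T3). With a minimum mean of 50 CPM, which leaves out Rpl10l, mESCs were past the fold over NIH/3T3 in 1 member, against 25.4%.

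The genes past the fold on the CPM scale came from both subunits. For NIH/3T3 over N2a, 8 belonged to the large subunit (Rpl39l, Rpl21, Rpl26, Rpl7, Rpl30, Rplp0, Rpl6 and Rplp1) and 8 to the small subunit (among them Rps6, Rps27l, Rps12, Rps7, Rps20, Rps15 and Rpsa). For mESCs over N2a they included Rpl10l, Rps18, Rpl21, Rps27l, Rpl26, Rps14, Rpl4, Rps20, Rpl39l, Rpl35a and Rps6. For NIH/3T3 over mESCs they were Rpl39l, Rps13, Rpl30, Rps12, Rpl21, Rpl34, Rpl37, Rps15, Rplp0, Rps6 and Rpl10.

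The members thus differed by small amounts and mostly one way. Their median log2 ratio was 0.31 for NIH/3T3 over N2a, with the middle 50% from 0.21 to 0.54 and 76 of 79 values above 0. The median of all genes was -0.02, with the middle 50% from -0.61 to 0.60 and 4863 of 9909 values above 0. For mESCs over N2a the members' median was 0.15 with 58 values above 0, against 4722 of 9909 for all genes. For NIH/3T3 over mESCs it was 0.19 with 57 above 0, against 5116 of 9909. Relative to the summed UMIs of the members, the medians were -0.06 for NIH/3T3 over N2a, -0.04 for mESCs over N2a and 0.02 for NIH/3T3 over mESCs. In that order, 34, 33 and 43 of 79 values were above 0. Dividing by the members' own sum brings their medians near 0 by construction, so these values cannot decide about the directions. CPM were also scaled by the median ratio of 4739 other genes at a mean of 50 CPM or more. The medians were then 0.34 for NIH/3T3 over N2a, 0.17 for mESCs over N2a and 0.21 for NIH/3T3 over mESCs. The 3 comparisons share libraries and are not independent of each other.

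**Figure D3:**
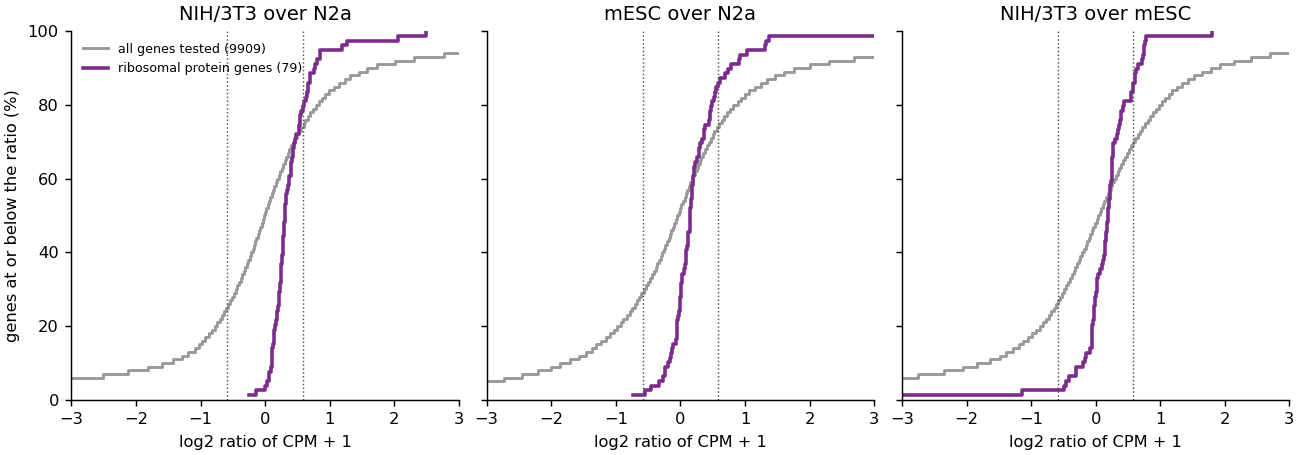
Cumulative percent of genes (y axis) by log2 ratio of CPM + 1 (x axis, shown from -3 to 3) for the 79 ribosomal protein genes (purple) and all 9909 genes tested (grey), 1 panel per pair of lines; dotted lines mark a ratio of 1.5 in either direction. The purple curves are steep and shifted right, with medians of 0.31, 0.15 and 0.19.

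Some members stood far from the others. Rpl21, a large subunit protein, was at 366 CPM (357 to 375), 1528 CPM (1506 to 1551) and 914 CPM (897 to 931). It was 4.17-fold higher in NIH/3T3 than in N2a and 2.50-fold higher in mESCs than in N2a. Its BC1 values of 293 to 479, 1368 to 1800 and 745 to 1265 CPM did not overlap. Of its coding stretches 99.5% had copies, at up to 38 places. Rpl26, a large subunit protein that binds p53 mRNA, was at 634, 1531 and 1303 CPM, 2.41-fold higher in NIH/3T3 and 2.06-fold higher in mESCs than in N2a.

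Rps6, the small subunit protein phosphorylated downstream of mTOR, whose TOP motif is shown above, was at 408, 939 and 615 CPM. It was 2.30-fold higher in NIH/3T3 than in N2a and 1.53-fold higher than in mESCs, and its BC1 values did not overlap between NIH/3T3 (820 to 1105 CPM) and the rest (at most 760 CPM). Rps13 (607, 884 and 515 CPM) and Rpl30 (251, 428 and 251 CPM) were 1.71-fold and 1.70-fold higher in NIH/3T3 than in mESCs. Rps13, of the small subunit, was lowest in mESCs, and Rpl30, of the large subunit, was as low there as in N2a. Copies covered 97.7% of the coding stretches of Rps13 and 79.0% of those of Rpl30. The listed gene Dhx32, whose exons held copies of 39.3% of the Rps13 stretches, was highest in mESCs (23.7, 58.1 and 134 CPM). How reads were divided between Rps13 and Dhx32 was not tested.

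Rps18, a small subunit protein, was at 412, 482 and 1066 CPM, 2.58-fold higher in mESCs than in N2a and 2.21-fold higher than in NIH/3T3. Its BC1 values in mESCs ran from 858 to 1607 CPM, above all values elsewhere (at most 604 CPM). Listed pseudogenes of Rps18 went the other way. Rps18-ps6 was at 167, 204 and 1.2 CPM, and Rps18-ps5 at 81.8, 84.3 and 15.1 CPM. Rps18 with its 3 listed pseudogenes summed to 662, 771 and 1083 CPM, so that mESCs were 1.64-fold higher than N2a and 1.40-fold higher than NIH/3T3. The difference of Rps18 from NIH/3T3 thus passed the fold alone but not with the pseudogenes added. How reads were divided between Rps18 and these copies was not tested.

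Rps14, a small subunit protein, was at 963, 1295 and 1818 CPM, 1.40-fold higher in mESCs than in NIH/3T3, the largest such ratio after Rpl10l and Rps18. Rpl34 of the large subunit was at 953 and 952 CPM in N2a and NIH/3T3 and at 575 CPM in mESCs, so that N2a was 1.66-fold higher than mESCs. Rpl37 (1725, 1951 and 1182 CPM) and Rpl11 (1275, 1073 and 927 CPM) were 1.46-fold and 1.37-fold higher in N2a than in mESCs, under the fold. Against NIH/3T3 the members with the largest N2a ratios were Rpl11 with 1.19, Rpl32 with 1.11 (1563, 1410 and 1736 CPM) and Rpl34 with 1.00. Rpl11 and Rpl34 were the members highest in N2a.

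Of the genes chosen by role, Rps6 is described above and Rpl11 with the members highest in N2a. Rpl5 and Rpl11, which with 5S rRNA bind Mdm2 and so act on p53, were not shifted alike: Rpl5 was at 1606, 1705 and 1778 CPM, lowest in N2a, and Rpl11 was highest there. Rps19, the gene most often mutated in Diamond-Blackfan anaemia, was at 855, 1040 and 989 CPM. Rpl38, which is needed for translation of Hox mRNAs in the embryo, was at 1493, 1610 and 1192 CPM, and Rps25, which is needed for some internal ribosome entry sites, at 1096, 1190 and 964 CPM, both lowest in mESCs. Rpl10a was at 693, 1037 and 895 CPM. Rpl5, Rpl11, Rps19, Rpl38, Rps25 and Rpl10a did not pass the fold of 1.5 between any of the lines, and Rpl10a came closest to it, for NIH/3T3 over N2a.

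The stalk is the part of the large subunit that recruits elongation factors. Its base, Rplp0, was at 799, 1263 and 815 CPM, 1.58-fold higher in NIH/3T3 than in N2a and 1.55-fold higher than in mESCs. Rplp1 was at 951, 1484 and 1136 CPM, 1.56-fold higher in NIH/3T3 than in N2a, and its partner Rplp2 at 894, 1107 and 947 CPM, 1.24-fold higher. All of these stalk genes were highest in NIH/3T3. Rpsa, a small subunit protein also known as the laminin receptor, was at 751, 1138 and 1041 CPM, 1.51-fold higher in NIH/3T3 than in N2a.

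The paralogs Rpl10l, Rpl39l, Rps27l and Rpl22l1 differed more between the lines than their partners did. Rpl10l, a paralog of the X-linked Rpl10 that is known from the testis, was found almost only in mESCs among these libraries. It lies on chromosome 12 (GRCm39, chr12:66329273-66331181, minus strand), has its coding sequence in 1 exon and overlaps no listed gene. Of its 642 coding bases 84.74% were identical to those of Rpl10 and of its 214 residues 98.6%, yet only 6.35% of its coding stretches had an exact copy. Whether reads fell on the bases that differ was not examined. The last 60 coding bases before the stop codon are shown as an example, with the 7 bases that differ in capitals (GRCm39, chrX:73316611-73316670, plus strand, and chr12:66330490-66330549, minus strand).
Rpl10: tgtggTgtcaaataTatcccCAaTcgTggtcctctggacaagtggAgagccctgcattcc
Rpl10l: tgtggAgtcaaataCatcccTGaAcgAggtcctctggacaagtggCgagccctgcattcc

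Rpl10l had 5, 5 and 1680 UMIs, which is 0.278 CPM (0.0904 to 0.650), 0.427 CPM (0.139 to 0.997) and 136 CPM (130 to 143). On the CPM + 1 scale, which understates the ratio of low genes, mESCs were 107-fold higher than N2a and 96.2-fold higher than NIH/3T3. Its BC1 values in mESCs ran from 86.7 to 195 CPM, above all values elsewhere (at most 3.45 CPM). With each cell thinned to 1000 UMIs, Rpl10l was seen in 259 of 2137 mESCs (12.1%), in 1 of 2037 NIH/3T3 cells and in 0 of 2323 N2a cells, which allows a share of up to 0.129% of cells with a UMI at that thinned depth. Before thinning the shares of cells with a UMI were 0.215%, 0.245% and 46.0%. Rpl10 itself was at 406, 586 and 386 CPM, so Rpl10l made up 26.1% of the pair's UMIs in mESCs (25.03% to 27.19%), 0.0685% in N2a and 0.0729% in NIH/3T3. All of the coding stretches of Rpl10, unlike those of Rpl10l, had copies, and the part of this in the share was not tested.

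Rpl39l, a paralog of the X-linked Rpl39 also known from the testis, was highest in NIH/3T3. It was at 81.8, 464 and 133 CPM, 5.61-fold higher in NIH/3T3 than in N2a and 3.47-fold higher than in mESCs. Its BC1 values in NIH/3T3 ran from 354 to 622 CPM and elsewhere reached at most 191 CPM. Rpl39 was at 977, 1143 and 963 CPM, and Rpl39l made up 7.73%, 28.8% and 12.1% of the pair. None of the stretches of Rpl39l had a copy, against 74.5% of those of Rpl39. Their coding bases were 84.97% identical and their 51 residues 94.12%. Of the last 60 coding bases 13 differed (capitals), with Rpl39 spread over 2 coding exons within chrX:36346357-36347651 (minus strand) and Rpl39l in 1 at chr16:9992267-9992326 (plus strand) on GRCm39.
Rpl39: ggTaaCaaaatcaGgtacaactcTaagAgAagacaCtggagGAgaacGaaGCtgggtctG
Rpl39l: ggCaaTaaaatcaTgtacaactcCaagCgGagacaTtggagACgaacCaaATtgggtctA

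Rps27l, a p53 target that encodes a protein 96.43% identical to Rps27, was highest in mESCs. It was at 247, 448 and 615 CPM, 2.48-fold higher in mESCs and 1.81-fold higher in NIH/3T3 than in N2a. Its BC1 values overlapped only between NIH/3T3 (377 to 588 CPM) and mESCs (510 to 857 CPM). Rps27 was at 692, 960 and 847 CPM, and Rps27l made up 26.3%, 31.8% and 42.1% of the pair. Copies covered 17.6% of the stretches of Rps27l and all of those of Rps27. Of the last 60 coding bases 11 differed (capitals), within chr3:90120035-90120274 (minus strand) for Rps27 and chr9:66854946-66856636 (plus strand) for Rps27l, both across exon junctions on GRCm39.
Rps27: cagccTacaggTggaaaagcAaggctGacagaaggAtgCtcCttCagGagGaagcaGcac
Rps27l: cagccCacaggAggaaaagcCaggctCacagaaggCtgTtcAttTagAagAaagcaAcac

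Partners outside the symbol rule gave further differences. Rpl22l1, whose protein is 70.31% identical to that of Rpl22, was at 150, 451 and 312 CPM, while Rpl22 was at 914, 1024 and 880 CPM. Rpl22l1 thus made up 14.1%, 30.6% and 26.2% of the pair, and the BC1 values of N2a (at most 18.5%) lay under those of the rest (at least 20.8%). Rpl36al made up 33.3%, 38.8% and 41.7% of the UMIs of Rpl36a and Rpl36al, Rpl7l1 12.4%, 10.1% and 14.7% of those of Rpl7 and Rpl7l1, and Rps27rt 8.11%, 7.53% and 9.18% of those of Rps27 and Rps27rt. The BC1 values of these last 3 pairs overlapped between all lines. Copies covered 69.7% of the coding stretches of Rpl22l1, 76.8% of those of Rpl36al, 12.7% of those of Rpl7l1 and all of those of Rps27rt. Exons of the listed gene Orc5 held copies of Rpl22l1 stretches. Every coding stretch of Rps27 had an exact copy in Rps27rt. How reads were divided between these genes and their copies was not tested, so the share of Rps27rt cannot be read as its use. Rpl3l was at most 0.101% of the UMIs of Rpl3 and Rpl3l.

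The missed gene Rps3a1, a small subunit protein, was at 125, 1481 and 122 CPM, in NIH/3T3 11.8-fold higher than in N2a and 12.0-fold higher than in mESCs. Its BC1 values were at 1258 CPM or more in NIH/3T3 and at most 235 CPM elsewhere. Of its coding stretches 82.5% had copies, and their part in this difference was not tested.

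**Figure D4:**
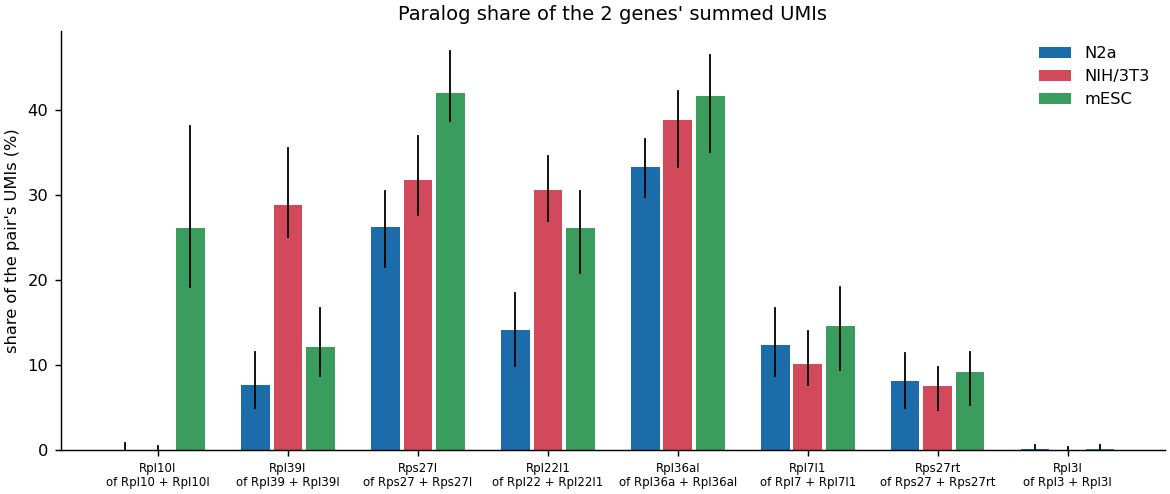
Percent of the summed UMIs of a gene and its paralog that came from the paralog (y axis) for 8 pairs (x axis) in N2a, NIH/3T3 and mESCs (bar colours), 1 library each; black lines span the lowest and highest of 32 BC1 sequences. Rpl10l reaches 26.1% in mESCs only, and Rpl39l 28.8% in NIH/3T3. The paralogs differ in how many of their coding stretches have copies, and for Rps27rt all do.

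Members past the fold in either direction were counted apart by their copies. Among the 16 tested members with copies for fewer than 50% of their coding stretches, 4 were past it between NIH/3T3 and N2a, 5 between mESCs and N2a and 4 between NIH/3T3 and mESCs. Among the other 63 members these counts were 12, 8 and 9. Of all genes tested, 51.0%, 54.8% and 56.7% were past the fold in either direction, more than in both groups of members. Of the 80 members, 38 also overlapped a listed gene on the opposite strand and 1, Rpl19, on the same strand. Such overlaps were not counted for other genes. Whether the counting used strand is not given in the sources used here.

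The ribosomal protein share differed between cells of 1 line far beyond counting error. With each cell thinned to 1000 UMIs, the SD over cells was 2.74, 3.20 and 2.41 percentage points, against binomial SDs of 0.828, 0.924 and 0.875 points. The SD beyond counting was 2.61, 3.06 and 2.24 points, or 35.2%, 32.5% and 26.8% of the mean share. It was smallest in mESCs. Large and small subunit genes were alike, with 35.3%, 32.4% and 26.0% for the large and 35.4%, 33.01% and 28.1% for the small subunit. Ribosome biogenesis genes varied by 22.6%, 22.4% and 21.3% and mitochondrially encoded genes by 68.9%, 62.9% and 72.0%.

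The members moved together. The variance of their summed UMIs was 8.59, 9.02 and 6.20 times the sum of their own variances, where independent genes would give a value near 1. For the 78 mitochondrial ribosomal protein genes, a list of like size but fewer UMIs, it was 1.43, 1.29 and 1.29. Over cells, the UMIs of the large and the small subunit were correlated with Pearson's r of 0.80 in 2323 N2a cells, 0.82 in 2037 NIH/3T3 cells and 0.74 in 2137 mESCs. The 2 sums share the cell's fixed total of 1000 UMIs. With the translation factors and related genes r was 0.55, 0.52 and 0.46, and with ribosome biogenesis genes 0.28, 0.24 and 0.26.

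**Figure D5:**
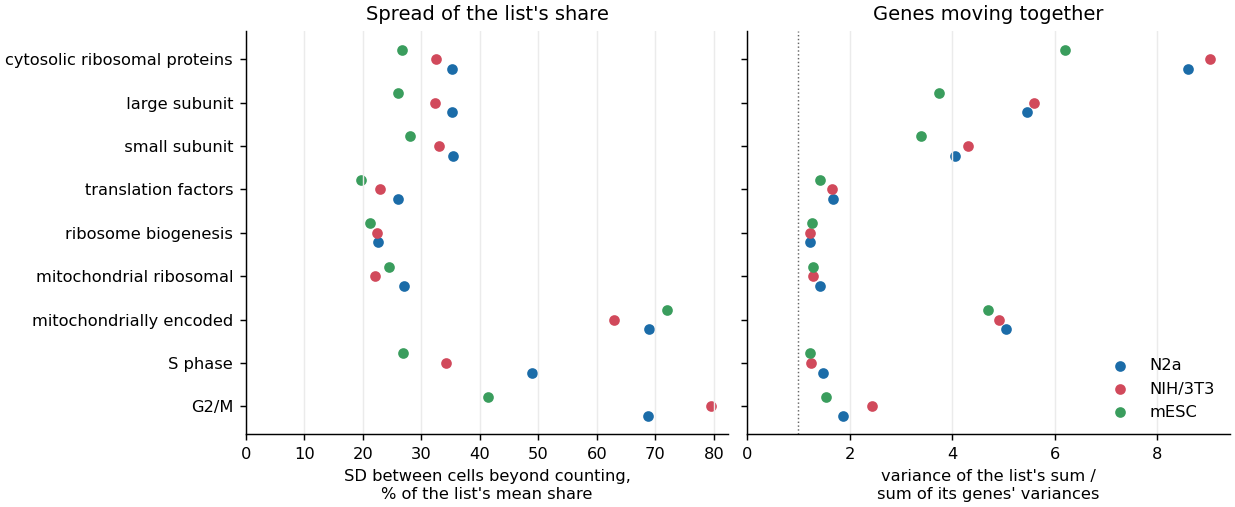
Left, the SD between cells beyond counting error as a percent of the list's mean share (x axis) for each gene list (y axis) in N2a, NIH/3T3 and mESCs (point colours), with cells thinned to 1000 UMIs. Right, the variance of the list's summed UMIs over the sum of its genes' variances, with a dotted line at 1: the cytosolic ribosomal protein genes reach 6.20 to 9.02.

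Single members showed the same pattern in cells thinned to 4000 UMIs (1629, 1227 and 1286 cells). Among members with a mean of 2 UMIs or more, the correlation of a gene with the sum of the other members had a median of 0.50, 0.47 and 0.39, against -0.01, 0.11 and -0.02 for other genes at that level. The highest values belonged to Rps29 in N2a (0.66), Rpl41 in NIH/3T3 (0.66) and Rps14 in mESCs (0.57), and the lowest to Rpl4 in N2a (0.31) and NIH/3T3 (0.30) and to Rpl39 in mESCs (0.28). Rpl4 and Rpl39 encode large subunit proteins. The missed genes Fau and Rack1 had values of 0.43, 0.52 and 0.37 and of 0.45, 0.40 and 0.36, within the range of the members. Such values were not limited to genes of translation. Among all 183, 163 and 202 other genes at that level, the highest were Cox4i1 in N2a, Lgals1 in NIH/3T3 and Dppa5a in mESCs. The highest 5% of other genes lay above 0.40, 0.40 and 0.27, and 2, 5 and 8 of them passed the members' lower quartile. Rps27l had 0.23, 0.14 and 0.28, at means of 1.01, 1.79 and 2.51 UMIs. In mESCs it was thus at the low end of the members. In N2a and NIH/3T3 its means were under the minimum of 2 UMIs, so those values cannot be set against that range. The missed gene Rps3a1 had 0.13, 0.41 and 0.09, at means of 0.50, 5.93 and 0.48 UMIs.

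At this depth the variance of a single gene was mostly close to its mean. At a mean of 0.5 UMIs or more per thinned cell, the median variance over mean was 1.16, 1.16 and 1.10 for 68, 71 and 72 members, and 1.12, 1.10 and 1.10 for other genes. The highest were Rps29 in N2a (1.39), Rpl41 in NIH/3T3 (1.49) and Rps27a in mESCs (1.22). Members and other genes thus lay close together on this measure of single genes. At such low counts it stays near 1 even for genes that vary as the summed share does. It therefore cannot show how far single genes vary beyond counting.

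Other measures of the cells moved with the share to different degrees. In the 25% of cells with most UMIs the median share was 6.80%, 9.06% and 7.81%, and in the 25% with fewest 7.73%, 9.58% and 8.71%. Between the 25% of cells lowest and the 25% highest in ribosome biogenesis genes it went from 5.86% to 8.66%, from 8.38% to 9.99% and from 7.57% to 9.10%. For mitochondrially encoded UMIs it went from 5.93% to 8.33% in N2a and from 7.51% to 9.14% in mESCs, but from 9.34% to 9.04% in NIH/3T3. The part of depth and RNA quality in these values was not tested.

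The median share was lower in the 25% of cells highest in G2/M genes than in the 25% lowest, most so in NIH/3T3. Over all thinned cells, Pearson's r of the member UMIs with those of G2/M genes was 0.01, -0.13 and -0.04. In the 25% of cells highest in G2/M genes the median share was 7.17%, 8.68% and 8.06%, and in the 25% lowest 7.51%, 9.85% and 8.65%. For S phase genes it was 7.53%, 9.29% and 8.61% in the highest and 7.04%, 9.51% and 8.14% in the lowest. Among mESCs, 78 cells with at least 3 UMIs of genes of the 2-cell stage had a median share of 7.81% (middle range 6.78% to 9.80%), and 1983 cells with none 8.32% (7.10% to 9.78%). These ranges overlapped almost fully, and Rpl10l was at 133 CPM (98.9 to 175) in the former and 136 CPM (129 to 143) in the latter.

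A few cells lay far out. Bounds of 2% and 15%, chosen after the values were seen, set apart 51 N2a cells, 32 NIH/3T3 cells and 40 mESCs below and 26, 62 and 10 cells above. The cells below held medians of 3704, 2926 and 1745 UMIs with 0.165%, 8.33% and 0.591% mitochondrially encoded UMIs, against 2.13%, 2.47% and 2.03% in cells between the bounds. The cells below were thus low in mitochondrial UMIs in N2a and mESCs and high in NIH/3T3. Of their member UMIs, 60.6%, 58.3% and 56.5% came from the large subunit, close to the 59.3%, 58.2% and 57.0% of the cells between. The cells above 15% held medians of 1690, 1830 and 3296 UMIs, and the cells between the bounds 6308.5, 4993 and 4884. Both groups of far cells were thus low in UMIs beside the cells between, and the part of depth was not tested.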

How the data were processed

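Cells of N2a, NIH/3T3 and mESCs were profiled by CapSeq, and the authors demultiplexed the reads by BC1 and counted them with STARsolo on GRCm39 (GENCODE M30). The authors deposited unnormalized and unfiltered UMI counts as 3 matrices, 1 for each line, and 1 pooled matrix of the same reads, used only as an alternative. The feature mode, the handling of multimapping reads and the use of strand are not given in the sources used here.

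The study's filter was applied (at least 1000 UMIs, at most 20% mitochondrial UMIs). Doublets were not called. UMIs were summed over cells and scaled to CPM, and ratios used CPM + 1 for genes with a mean of at least 10 CPM. Total depth was 11697865 to 17955221 UMIs per line. For variation between cells, each cell was thinned to 1000 UMIs. Copies were exact 60-base matches of coding sequence (GENCODE M39) in GRCm39, where 32953 of 33565 gene identifiers were found. A stretch inside 1 exon, or with fewer than 10 bases beyond a junction, was allowed 1 match as its own position. With 1 library per line no p-value was computed. Steps were tested on simulated data. Software was numpy 2.4.6, pandas 2.3.3, scipy 1.17.1 and numba 0.67.0 under Python 3.11.15.

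The members, gene lists and alternatives were chosen with earlier results of these data known. Named genes were the 3 members with the largest ratio for each pair of lines and direction, the 3 highest and 3 lowest members, paralogs with their partners, the stalk proteins with Rpsa, and 7 genes with known roles. The pairs of Rps4x with Rps4l and of Rpl37 with Rpl37rt were not analysed here. Others are named as called past the fold or as extremes of a measure. Alternatives changed the cell filter, weighting, denominator, member rule, matrix, fold, scaling, pseudocount and thinning. The levels of 1 member and of 1 gene missed by the rule are not reported here.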

Additional observations from a re-analysis of the deposited data

How the results depend on the processing

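The order NIH/3T3, mESC, N2a held for the share under all 9 alternatives. The shares in N2a, NIH/3T3 and mESCs were 7.41%, 9.41% and 8.37% as a mean over cells, 7.31%, 9.47% and 8.38% without mitochondrial genes in the denominator, 7.3%, 9.3% and 8.31% without the 5% of cells with most UMIs, 7.29%, 9.52% and 8.32% with the 4 missed genes in place of paralogs, and 7.17%, 9.37% and 8.15% over every barcode. In N2a and NIH/3T3 they were 7.13% and 9.19% at a minimum of 2000 UMIs and 7.16% and 9.24% at 500, and in NIH/3T3 and mESCs 9.27% and 8.22% at 10% mitochondrial UMIs. At a fold of 2 the calls were 4 for NIH/3T3 over N2a, 5 for mESCs over N2a, 1 for NIH/3T3 over mESCs and 0 for N2a over mESCs. At 1.25 they were 36, 24, 23 and 4, and 5 for mESCs over NIH/3T3. Relative to the members' summed UMIs they were 4 for NIH/3T3 over N2a, 1 for N2a over NIH/3T3, 3 for N2a over mESCs, 3 for NIH/3T3 over mESCs and 4 for mESCs over NIH/3T3. At a minimum of 50 CPM, which drops Rpl10l, the count for mESCs over NIH/3T3 was 1. The SD beyond counting was 2.35, 2.6 and 2.02 points in cells thinned to 2000 UMIs, and 2.19, 2.35 and 1.94 without the cells under 2% or over 15%, an alternative chosen after seeing the data. At 10% mitochondrial UMIs it was 2.93 in NIH/3T3 and 2.11 in mESCs. The causes of these shifts were not tested beyond the construction of each alternative. For Rpl10l, Rpl39l, Rps27l, Rpl22l1 and Rpl3l the paralog shares stayed inside their intervals in 30 of 30 cases. These used a minimum of 2000 UMIs or every barcode, which share most UMIs with the main cells, so the shares had little room to move. The other 3 pairs had no alternative. No paired analysis was possible because each line was 1 library. Depth limits genes at a few UMIs, such as Rpl3l and, outside mESCs, Rpl10l.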
